A study of Mus musculus with 16 samples.

Results

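The LIM-domain genes described here are 9 listed genes of the FHL, CSRP, CRIP, PDLIM and LMCD1 families, out of 19938 genes with a row of their own on the array. They are Fhl1, Fhl2, Fhl3, Csrp1, Csrp2, Crip1, Crip2, Pdlim7 and Lmcd1. Each was read from the row annotated to its symbol alone, and each gene had 1 such row. The genes were chosen with their transgenic and wildtype values known, so the differences between these groups are given for them as a description, with no test. The arrays hold liver RNA of 7 Pdgf-c transgenic and 9 wildtype mouse samples, both on the C57BL/6 background, hybridised to Affymetrix Mouse Gene 1.0 ST arrays, which report 1 value per transcript cluster. The transgene's product, platelet-derived growth factor C, acts through PDGF receptors on fibroblasts and hepatic stellate cells. The labels give neither the age or sex of the mice, nor the promoter that drives the transgene, nor whether each sample is a separate animal, so p-values measure the spread between these samples. Values are log2 intensities on the authors' scale. They set 1 gene's groups against each other and not 1 gene's level against another's.

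The LIM domain is a zinc-binding fold of paired fingers that binds other proteins. Proteins that carry it hold together actin filaments, integrin adhesions and, in the nucleus, transcription factors. FHL proteins consist of LIM domains in series, with a single unpaired finger at the amino end. They move between adhesions and the nucleus as co-regulators. CSRP and CRIP proteins are short and hold 1 or 2 LIM domains. In liver, FHL2 and the cysteine-rich proteins are known from hepatic stellate cells and smooth muscle, and CRIP1 also from immune cells.

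Stromal cells are named in the labels, but total hepatic RNA in the protocol. Hepatocyte genes were bright in both groups: Alb averaged 13.5 in the transgenic and 13.6 in the wildtype arrays. The row of Pdgfc differed by 0.44 ± 0.0873 on the log2 scale (SE, limma adjusted p = 0.00132), with 6 of 7 transgenic arrays above all wildtype arrays. Whether its probes read the transgene's RNA beside the endogenous RNA is not known here. Column medians lay between 5.2 and 5.36, and any pair of arrays correlated over all rows at 0.976 to 0.991 (Pearson's r). Of 35557 rows, 18.9% passed the test (limma, Benjamini-Hochberg adjusted p under 0.05), 10.6% higher and 8.26% lower in the transgenic group. With the brightest row of each gene, 23.2% of 19938 genes passed, 12.1% higher and 11.1% lower.

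The 9 genes fell into a set of 3 with large differences and a set of 6 with small ones. Fhl2, Csrp1 and Crip1 were 9.47-fold, 3.75-fold and 2.06-fold higher in the transgenic group. In each of these 3, the lowest transgenic array exceeded the highest wildtype array. Over all genes, 1.54% were at least 2-fold higher while 5.43% had every transgenic array above and 3.65% every transgenic array below the wildtype arrays. The other 6 genes differed by less than 1.5-fold and their groups overlapped. All 9 differences were positive, with a median of 0.25 on the log2 scale, beside a median of -0.04 and 39.9% positive differences over all genes. Since these values chose the genes, nothing is read from those shares.

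**Figure D1:**
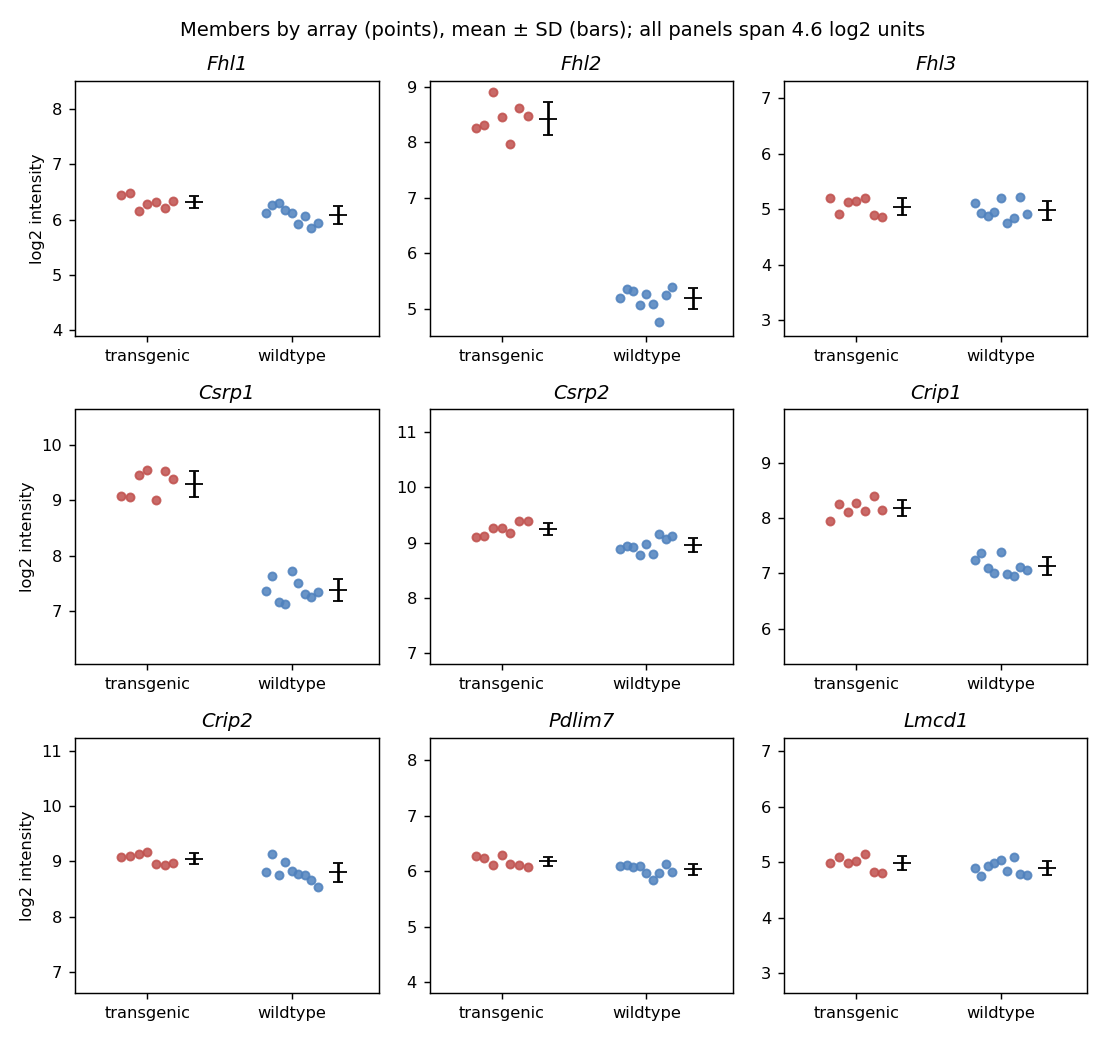
Log2 intensity (y axis) of each of the 9 LIM-domain genes in the 7 transgenic arrays and, to their right, the 9 wildtype arrays; points are arrays, bars are the mean ± SD, and every panel spans 4.6 log2 units. The groups stand apart in Fhl2, Csrp1 and Crip1 and overlap in the other 6 panels.

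Fhl2, the FHL gene whose protein binds integrin tails, beta-catenin and the androgen receptor, had the widest gap. Its log2 intensity was 7.96 at the lowest, 8.45 at the median and 8.91 at the highest in the transgenic arrays, against 4.76, 5.24 and 5.39 in the wildtype arrays. The lowest transgenic array stood 2.57 log2 units above the highest wildtype array, and the wildtype values lay near the median of the whole table (5.26). Group means were 8.43 ± 0.299 in transgenic and 5.18 ± 0.196 in wildtype arrays (SD, n = 7 and 9), a difference of 3.24 ± 0.116 (SE). This was the 5th largest positive difference among 19938 genes. In whole-liver RNA, more cells of a type and more RNA per cell cannot be told apart, here and for each gene that follows.

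Fhl1, the X-linked relative expressed most strongly in skeletal and cardiac muscle, ranged over 6.16, 6.31 and 6.48 (lowest, median, highest) in transgenic arrays, against 5.84, 6.11 and 6.3 in wildtype arrays. All 7 transgenic arrays were above the wildtype mean, and 4 of them were above the highest wildtype array. Its difference was 0.23 ± 0.073 (SE), 1.18-fold. Fhl3, another muscle FHL gene, ran from 4.85 through 5.13 to 5.2 in transgenic arrays, against 4.75, 4.93 and 5.22 in wildtype arrays. No transgenic array exceeded all wildtype arrays, and 6 of 9 wildtype arrays lay inside the transgenic range. The Fhl3 difference was 0.07 ± 0.083 (SE), smaller than its error. The 3 FHL genes thus spanned 1.05-fold to 9.47-fold.

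Promoter windows from RefSeq (build GRCm38.p6) reach from 250 bases before to 50 bases after a transcript's start, and 8 of the 9 genes have at least 1 in the table, with 12 windows in all. Csrp2 is the gene with none. They were searched on both strands for the CArG box, which serum response factor binds, for GGAATG, bound by TEAD factors, for TGANTCA, bound by AP-1, for the GC box GGGCGG and for TATAAA. A CArG box was present in 4 of the 12 windows, both of Fhl2 and 1 each of Fhl1 and Lmcd1, and in 1.63% of all 32851 windows in the table. These 4 windows are shown because they hold that match, with all motif matches in capitals. Fhl2 window 1 is chr1:43196712-43197011 and window 2 is chr1:43163912-43164211, both on the minus strand. The Fhl1 window is chrX:56779433-56779732 and that of Lmcd1 chr6:112273508-112273807, both on the plus strand. All are written 5′ to 3′ along the gene.
Fhl2 window 1: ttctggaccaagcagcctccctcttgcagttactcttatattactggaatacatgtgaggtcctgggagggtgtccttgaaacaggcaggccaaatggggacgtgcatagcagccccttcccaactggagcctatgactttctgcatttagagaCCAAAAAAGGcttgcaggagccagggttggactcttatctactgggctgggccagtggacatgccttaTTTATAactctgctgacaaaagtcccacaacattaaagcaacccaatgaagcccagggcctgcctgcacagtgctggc
Fhl2 window 2: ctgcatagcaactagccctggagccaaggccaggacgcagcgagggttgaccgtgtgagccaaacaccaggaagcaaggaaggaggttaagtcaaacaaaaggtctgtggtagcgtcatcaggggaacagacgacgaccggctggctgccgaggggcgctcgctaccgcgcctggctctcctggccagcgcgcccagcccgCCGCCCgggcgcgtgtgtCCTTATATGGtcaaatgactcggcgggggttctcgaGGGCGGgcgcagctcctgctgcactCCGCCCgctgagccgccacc
Fhl1 window 1: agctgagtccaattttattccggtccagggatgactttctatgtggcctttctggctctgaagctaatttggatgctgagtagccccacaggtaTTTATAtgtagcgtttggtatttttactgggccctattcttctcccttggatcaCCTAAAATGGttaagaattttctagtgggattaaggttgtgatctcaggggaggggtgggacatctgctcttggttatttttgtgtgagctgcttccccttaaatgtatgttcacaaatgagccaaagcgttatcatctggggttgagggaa
Lmcd1 window 1: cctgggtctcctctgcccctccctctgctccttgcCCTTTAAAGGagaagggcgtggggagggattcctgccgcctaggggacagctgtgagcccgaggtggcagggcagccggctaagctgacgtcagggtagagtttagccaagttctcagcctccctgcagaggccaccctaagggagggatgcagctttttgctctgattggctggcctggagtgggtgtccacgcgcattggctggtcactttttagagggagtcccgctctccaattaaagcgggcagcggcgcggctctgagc
The CArG match began 96 bases before the start in Fhl2 window 1 and 31 bases before it in window 2. In Fhl1 it began 102 bases and in Lmcd1 215 bases before the start. No CArG match overlapped another motif. The genes with a CArG box thus include 1 of the 3 with large differences and 2 of the 5 with small ones that have a window. A match is a run of letters and not a measured binding site.

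Csrp1, which encodes a cysteine-rich protein of smooth muscle and fibroblasts that binds alpha-actinin and zyxin, had the next largest difference. It ranged over 9, 9.39 and 9.54 (lowest, median, highest) in the transgenic arrays, against 7.13, 7.35 and 7.73 in the wildtype arrays. The gap between the groups was 1.27 log2 units. Means were 9.29 ± 0.24 in transgenic and 7.38 ± 0.205 in wildtype arrays (SD, n = 7 and 9), a difference of 1.91 ± 0.103 (SE), and 0.301% of all genes had a larger one. Csrp2, its relative known as a marker of hepatic stellate cells in rat, ran from 9.11 through 9.27 to 9.38 in transgenic arrays, against 8.78, 8.94 and 9.16 in wildtype arrays. There 5 of 7 transgenic arrays exceeded all wildtype arrays. The Csrp2 difference was 0.29 ± 0.0616 (SE), 1.22-fold, so the 2 genes differed by 3.75-fold and 1.22-fold.

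Crip1 and Crip2 encode cysteine-rich proteins named after intestine, where CRIP1 was first described. In the RefSeq gene table they lie near each other on chromosome 12, with 1 predicted gene, Gm30599, between them. Crip1 ranged over 7.95, 8.15 and 8.39 (lowest, median, highest) in transgenic arrays, against 6.95, 7.1 and 7.39 in wildtype arrays, with a gap of 0.57 between the groups. Its means were 8.18 ± 0.141 in transgenic and 7.14 ± 0.163 in wildtype arrays (SD, n = 7 and 9), a difference of 1.04 ± 0.0757 (SE). Crip2, expressed in heart and vascular endothelium, ran from 8.94 through 9.08 to 9.17 in transgenic arrays, against 8.54, 8.77 and 9.12 in wildtype arrays. There 2 of 7 transgenic arrays exceeded all wildtype arrays, of which wildtype array 2 was the highest. The Crip2 difference was 0.25 ± 0.0692 (SE), 1.19-fold. These neighbouring genes thus differed from wildtype by 2.06-fold and 1.19-fold.

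The windows of Csrp1 and Crip1 that hold a motif match are shown for comparison with Fhl2, as the other genes with large differences. Csrp1 window 2 is chr1:135728917-135729216 and the Crip1 window is chr12:113151762-113152061, both on the plus strand of GRCm38.p6.
Csrp1 window 2: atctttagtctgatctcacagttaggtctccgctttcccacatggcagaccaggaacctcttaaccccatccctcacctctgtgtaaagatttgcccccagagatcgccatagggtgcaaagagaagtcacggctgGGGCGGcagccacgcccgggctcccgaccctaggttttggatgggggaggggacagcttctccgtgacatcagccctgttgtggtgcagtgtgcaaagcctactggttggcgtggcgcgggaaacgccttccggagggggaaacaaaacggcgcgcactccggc
Crip1 window 1: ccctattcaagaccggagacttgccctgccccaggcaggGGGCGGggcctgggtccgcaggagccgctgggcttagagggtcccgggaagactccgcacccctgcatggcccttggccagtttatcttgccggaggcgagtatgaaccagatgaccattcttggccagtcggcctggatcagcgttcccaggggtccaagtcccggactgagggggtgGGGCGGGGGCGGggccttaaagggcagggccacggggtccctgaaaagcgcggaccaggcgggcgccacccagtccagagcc
Capitals again mark motif matches, here the GC box GGGCGG, which 35.7% of all windows hold. It occurred once in the Csrp1 window and at 3 sites in that of Crip1, 2 of them adjoining. Neither window held a CArG box or any of the other 3 motifs, and the first Csrp1 window held none of the 5. Across the 12 windows, GGAATG and TGANTCA were in 0, while 14.7% and 7.81% of all windows hold them. The GC box was in 7 of the 12 windows, from 6 of the 8 genes. Among genes with small differences, Fhl3 had 5 sites, Crip2 had 4 and 5 in its 2 windows and Pdlim7 had 1, while Fhl1 and Lmcd1 had none.

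Pdlim7 and Lmcd1 changed little. Pdlim7, or Enigma, joins a PDZ domain to LIM domains and binds actin-linked kinases and receptors; it ran from 6.08 through 6.13 to 6.29 in transgenic arrays, against 5.84, 6.07 and 6.14 in wildtype arrays. All 7 transgenic arrays lay above the wildtype mean and 3 above all wildtype arrays, and the difference was 0.14 ± 0.0554 (SE). Lmcd1, or dyxin, a co-regulator known to restrain GATA6 and to act with calcineurin in heart muscle, ran from 4.8 through 4.98 to 5.15 in transgenic arrays, against 4.76, 4.89 and 5.1 in wildtype arrays. Of the 9 wildtype arrays, 6 fell inside the transgenic range. Its difference was 0.08 ± 0.0708 (SE). Measured against the spread within groups, the differences of the 9 genes ran from 0.44 pooled SDs for Fhl3 to 13.2 for Fhl2, with 8.65 for Csrp1, 6.76 for Crip1 and at most 2.29, that of Csrp2, for the rest.

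**Figure D2:**
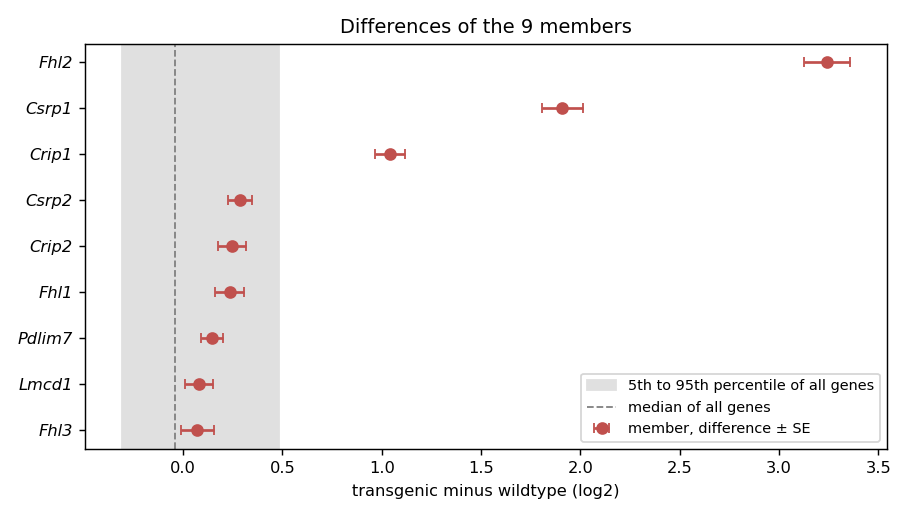
Transgenic minus wildtype difference on the log2 scale (x axis) for each of the 9 LIM-domain genes, with its SE; the grey band runs from the 5th to the 95th percentile of all 19938 genes (-0.31 to 0.48) and the dashed line is their median. Fhl2, Csrp1 and Crip1 lie to the right of the band and the other 6 inside it.

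Other genes of the LIM-domain family were then read from a list set by subfamily, drawn up with earlier results of these data known. Of 61 listed genes, 59 had a row, and of these 17 were higher and 1 was lower in the transgenic group (limma, adjusted p under 0.05 over all rows), which is 28.8% and 1.69%, beside 12.1% and 11.1% of all genes. The higher share of the called genes was 94.4% in the deposited values. Quantile normalization gave 69.6% (16 genes up, 7 down) and median centring of the arrays 68.2% (15 up, 7 down), while over all genes these 3 scalings gave 52.3%, 43.8% and 35.7%. The median difference of the 59 genes was 0.01 as deposited, -0.02 after quantile normalization and -0.04 after centring. Over all genes it was -0.04, -0.06 and -0.09. Leaving out transgenic array 1 gave 3 lower genes, leaving out wildtype array 4, 5 or 7 gave 2, and leaving out transgenic array 1 with wildtype array 9 gave 4. At least 1.5-fold changes were seen in 5 of the 59, all higher, where 3.78% of all genes were called higher by that much and 0.868% lower.

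The zyxin family, scaffold proteins of focal adhesions, rose in 6 of 7 genes. Fblim1, or migfilin, which links filamin to adhesions, averaged 6.18 ± 0.124 in transgenic and 5.26 ± 0.177 in wildtype arrays (SD, n = 7 and 9), a difference of 0.92 ± 0.0804 (SE, limma adjusted p = 1.69e-07). This was the largest change among the 59 genes, 1.89-fold, below that of Crip1. Ajuba, a scaffold that also binds Hippo pathway kinases, averaged 6.63 ± 0.194 in transgenic and 6.00 ± 0.243 in wildtype arrays, 1.55-fold higher (limma adjusted p = 2.86e-04). The member that did not pass, Limd1, differed by 0.13 ± 0.0634 (limma adjusted p = 0.175). In the paxillin family 2 of 3 genes rose. Lpxn, or leupaxin, a paxillin relative of leukocytes, averaged 5.65 ± 0.252 in transgenic and 5.05 ± 0.175 in wildtype arrays and was 1.51-fold higher (limma adjusted p = 3.47e-04), whereas Pxn itself differed by -0.06 ± 0.066 (limma adjusted p = 0.607).

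Of the PINCH genes, whose proteins bind integrin-linked kinase, Lims1 rose 1.6-fold (6.63 ± 0.268 in transgenic and 5.95 ± 0.126 in wildtype arrays; limma adjusted p = 5.03e-05). Lims2 differed by -0.19 ± 0.0837 (limma adjusted p = 0.134), and the difference between the 2 genes was not tested. Among 10 other actin-binding LIM genes, 2 rose and none fell, led by Ablim1, which tethers actin filaments, at 1.63-fold (7 ± 0.118 in transgenic and 6.29 ± 0.199 in wildtype arrays; limma adjusted p = 6.71e-06). Testin and prickle genes rose in 2 of 5 cases, with Tes, an adhesion protein that binds zyxin, at 1.48-fold (limma adjusted p = 0.00112), although its groups overlapped. Of the other PDLIM genes, the relatives of Pdlim7, 1 of 6 rose: Pdlim2, which binds alpha-actinin, at 1.22-fold with no overlap between the groups (limma adjusted p = 8.15e-04).

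Mical1, an enzyme that oxidises actin, rose 1.32-fold (limma adjusted p = 0.00305) as 1 of 5 MICAL genes, and Limk2, a kinase of cofilin, 1.13-fold (limma adjusted p = 0.0272) as 1 of 2 LIM kinases. The Limk2 call did not hold after median centring (limma adjusted p = 0.116), after quantile normalization (0.202) or when transgenic array 3, 4 or 7 or wildtype array 2 was left out (0.0503 to 0.0685). Lmo2, a LIM-only adaptor of blood and endothelial cells, rose 1.36-fold (7.61 ± 0.176 in transgenic and 7.16 ± 0.184 in wildtype arrays; limma adjusted p = 0.00105) as 1 of 4 LMO genes. Of 11 LIM homeobox genes, transcription factors of development, none passed the test as deposited. Lhx3 had the smallest p, with a difference of -0.15 ± 0.0683 (limma adjusted p = 0.159), though it was lower after quantile normalization (0.0266), after centring (0.0299), without transgenic array 1 (0.0406) and without transgenic array 1 and wildtype array 9 (0.0277). Isl2 was likewise called lower under both of those scalings.

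The remaining relatives of FHL, CSRP and CRIP genes did not rise. Csrp3, the muscle LIM protein of striated muscle, averaged 7.12 ± 0.256 in transgenic and 7.67 ± 0.305 in wildtype arrays, a difference of -0.55 ± 0.132 (SE, limma adjusted p = 0.00543). It ran from 6.85 to 7.63 in transgenic arrays, against 7.16 to 8.02 in wildtype arrays, so the groups overlapped. Beside it, of 8 skeletal muscle markers, 1, Pygm, was higher (0.92 ± 0.0868) and none was lower, and the summed intensity of that list was 284 to 322 in transgenic and 245 to 300 in wildtype arrays. The 8 markers all reached the table's 20th percentile in at least 1 group. Fhl4, Fhl5 and Crip3 differed by -0.22, -0.12 and -0.15 and did not pass (limma adjusted p = 0.108, 0.45 and 0.233), and Fhl4 and Fhl5 averaged less than that (3.45) in both groups. Crip3 was called lower after quantile normalization and Fhl4 after median centring.

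**Figure D3:**
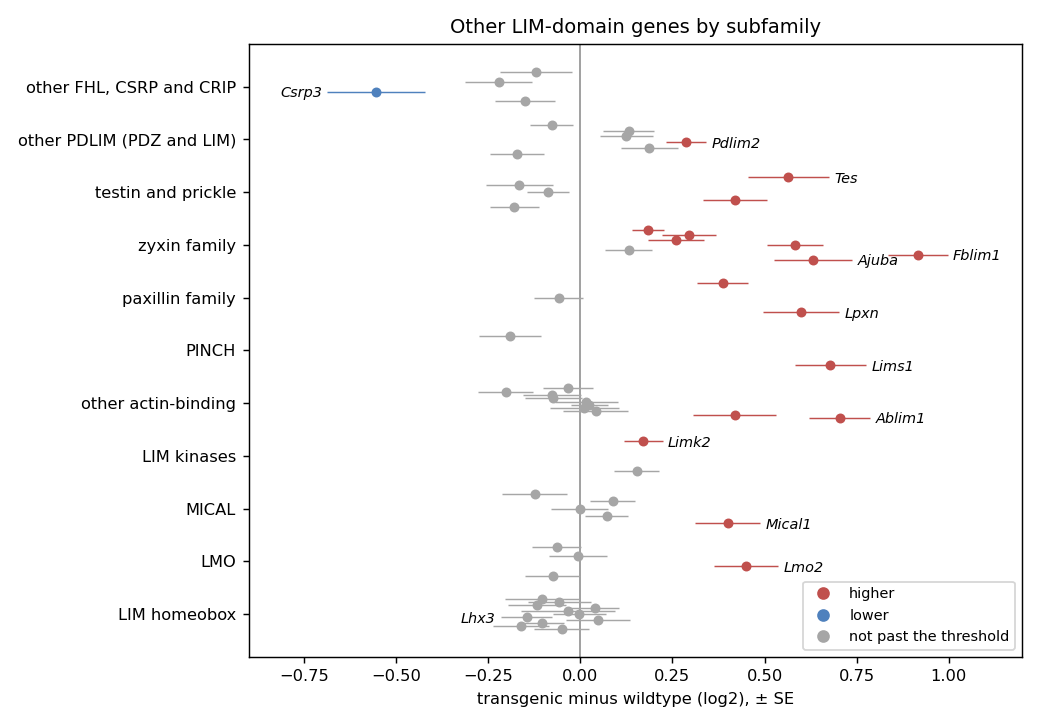
Transgenic minus wildtype difference on the log2 scale with its SE (x axis) for 59 other LIM-domain genes, grouped by subfamily (y axis); red genes were higher, the blue gene lower and grey genes not past an adjusted p of 0.05 (limma). The zyxin row has 6 red points of 7, and neither the row of other FHL, CSRP and CRIP genes nor the LIM homeobox row has one.

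Proteins that LIM-domain proteins bind were read as a further list, also drawn up with earlier results of these data known. What that choice did to the shares below was not tested. Of 30 measured genes, 13 were higher and 2 lower (limma, adjusted p under 0.05), with a median difference of 0.16, beside 12.1% higher, 11.1% lower and a median of -0.04 over all genes. These counts are 43.3% and 6.67% of the list. Among the partner genes only Myocd averaged below the table's median (5.26), whereas the shares over all genes include dimmer ones. On rows above that level alone, 3307 were higher and 2960 lower, beside 3785 and 2936 on all 35557 rows. About 50% of all rows lie below that level, so both shares are larger on the brighter rows than on all rows. Shares over genes matched for level were not computed. In the adhesion and actin part 8 of 13 rose and 1 fell. Flna, the actin cross-linker filamin A to which migfilin binds, stood out at 3.11-fold, with 8.06 ± 0.158 in transgenic and 6.42 ± 0.17 in wildtype arrays (limma adjusted p = 9.02e-11). Tln1 and Vcl, for talin and vinculin, were higher by 0.32 and 0.48 on the log2 scale (limma adjusted p = 1.07e-04 and 9.34e-04). Itga7, a laminin receptor chain whose tail binds FHL2, was lower (-0.28 ± 0.0531, limma adjusted p = 9.90e-04).

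Of 17 transcription partners, 5 rose and 1 fell. Ssbp2, which stabilises the LIM-domain-binding adaptors, rose 1.47-fold (limma adjusted p = 7.52e-05), and the adaptor genes Ldb1 and Ldb2 rose 1.29-fold and 1.26-fold (limma adjusted p = 3.34e-04 and 0.00184). Srf, which encodes serum response factor, differed by -0.07 ± 0.0559 (limma adjusted p = 0.424). Its co-activator genes Mrtfa, Mrtfb and Myocd differed by 0.12, 0.18 and -0.08 and did not pass (limma adjusted p = 0.166, 0.109 and 0.663). Ssbp3 was the transcription partner that fell (-0.13 ± 0.0432, limma adjusted p = 0.0369). It was not called after quantile normalization, and Fos, an AP-1 subunit, was called lower after quantile normalization and after centring. Leaving out any of transgenic arrays 1, 3, 6 and 7 and wildtype arrays 2, 5, 6, 7 and 8 left 1 lower gene in place of 2 across both parts.

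Cell type markers moved with the groups as well. All 10 stellate cell and fibroblast markers were higher (limma, adjusted p under 0.05), and their summed intensity was 5319 to 6767 in transgenic and 1483 to 2431 in wildtype arrays. So were all 5 markers of monocyte-derived macrophages, at 1174 to 1960 in transgenic and 376 to 766 in wildtype arrays. Of the vascular endothelial markers 4 of 5 were higher, at 642 to 889 in transgenic and 471 to 624 in wildtype arrays. Kupffer cell markers were lower in 4 of 4 cases (200 to 512 in transgenic and 1083 to 2155 in wildtype arrays) and those of sinusoidal endothelium in 4 of 5. Smooth muscle markers were higher in 2 of 7 cases, Mylk and Smtn, at 571 to 648 in transgenic and 411 to 476 in wildtype arrays, while the defining genes Myh11, Cnn1 and Actg2 differed by 0.05, -0.13 and 0.03 (limma adjusted p = 0.725, 0.302 and 0.849). Of the T and NK cell markers 2 of 5 were higher, of the B cell markers 2 of 2, of the mesothelial markers 1 of 5 and of the cholangiocyte markers 0 of 4. Hepatocyte markers were higher in 1 and lower in 2 of 6 cases. Every marker measured reached the table's 20th percentile in at least 1 group. Their part in the differences of Fhl2, Csrp1 and Crip1 was not tested.

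Within each group, the arrays offer a view of these 3 genes that did not enter their choice. Fhl2, Csrp1 and Crip1 were each set against the summed intensity of the stellate cell and of the macrophage markers, which makes 12 relations over both groups, chosen after the values were seen. Crip1 followed the macrophage list in the wildtype arrays (Pearson's r = 0.876, exact permutation p = 0.00351, adjusted 0.0421; Spearman's rho = 0.7, exact permutation p = 0.0433, adjusted 0.151; n = 9). Csrp1 did so with r = 0.821 (exact permutation p = 0.00809, adjusted 0.0486) and rho = 0.667 (exact permutation p = 0.0589, adjusted 0.151). Both rest on wildtype arrays 2 and 5, the 2 arrays farthest from the median of that list: without them r was 0.545 for Crip1 and 0.334 for Csrp1 over 7 arrays. These 2 arrays also had the highest sums in the wildtype group for stellate cell (2431 and 2330), Kupffer cell (1930 and 2155) and vascular endothelial markers (623.9 and 621.8). Without transgenic array 1 and wildtype array 9, r in the wildtype arrays was 0.872 for Crip1 and 0.826 for Csrp1, and neither passed (exact permutation, adjusted p = 0.083 and 0.0838).

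In transgenic arrays the corresponding values were r = 0.814 for Crip1 and 0.729 for Csrp1 (exact permutation p = 0.026 and 0.0363, both adjusted to 0.0899; rho = 0.75 and 0.714; n = 7). Fhl2 set against the stellate cell list had r = 0.652 in the transgenic arrays (exact permutation p = 0.108, adjusted 0.162; rho = 0.786; n = 7) and 0.68 in the wildtype arrays (exact permutation p = 0.0375, adjusted 0.0899; rho = 0.633; n = 9), neither past the threshold. Against the macrophage list its r was 0.555 in transgenic and 0.375 in wildtype arrays. Set against the stellate cell list, Csrp1 had r = 0.731 in transgenic and 0.581 in wildtype arrays, and Crip1 had 0.287 in transgenic and 0.555 in wildtype arrays, none past the threshold (exact permutation, adjusted p = 0.156 to 0.538). The arrays share a normalization, and none of these relations with marker lists was pooled over the groups.

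**Figure D4:**
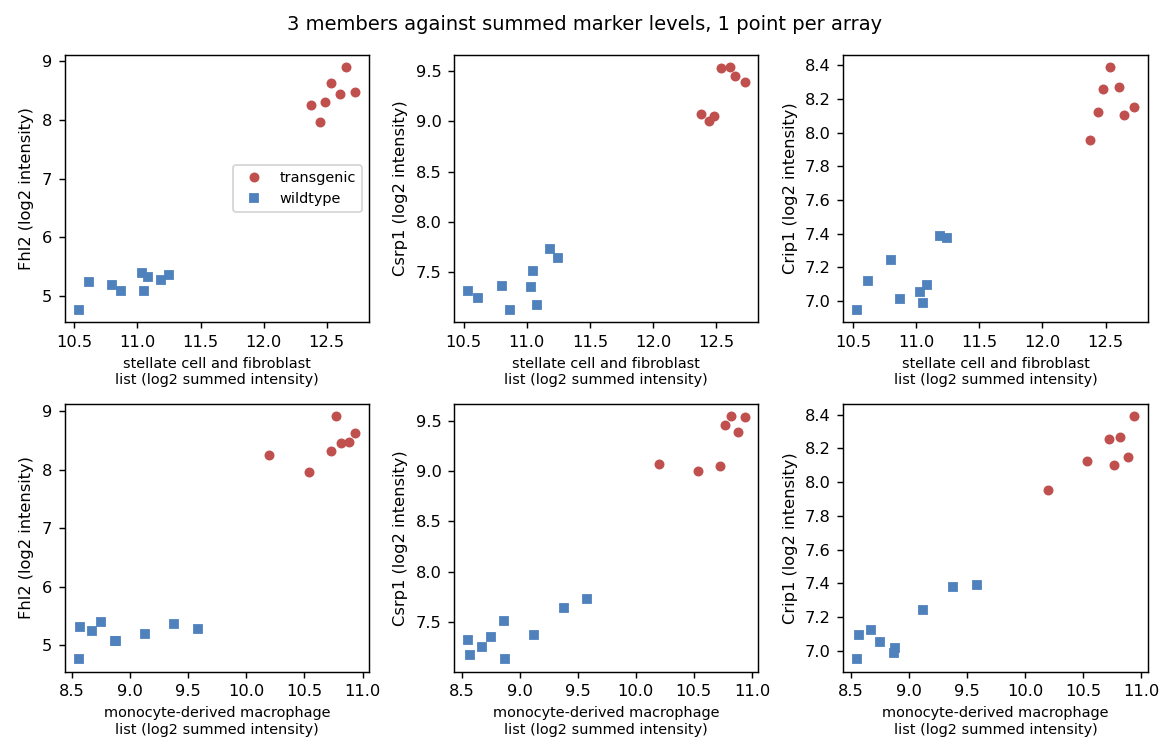
Log2 intensity of Fhl2, Csrp1 and Crip1 (y axes) against the log2 summed intensity of stellate cell and fibroblast markers (top) and of monocyte-derived macrophage markers (bottom), with 1 point per array, circles for 7 transgenic and squares for 9 wildtype arrays. The groups form separate clusters in every panel, and in the wildtype arrays Crip1 is highest where the macrophage list is highest.

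Relations of the 9 genes with each other were computed in the same way, 36 pairs in each group and 72 in all. None passed after adjustment (smallest adjusted p = 0.545 for r and 0.655 for rho, exact permutation), and 3 pairs in each group had an unadjusted exact permutation p under 0.05 for r. The median r was -0.118 in transgenic and 0.121 in wildtype arrays, where the median over all pairs of genes was 0 in both groups and its 5th to 95th percentiles ran from -0.73 to 0.74 and from -0.61 to 0.62. Fhl2 and Csrp1 had r = 0.782 in the transgenic arrays (exact permutation p = 0.0288, adjusted 0.545; rho = 0.714; n = 7) and 0.241 in the wildtype arrays (exact permutation p = 0.545, adjusted 0.835; rho = 0.3; n = 9). Crip1 and its neighbour Crip2 had r = -0.178 in the transgenic and 0.462 in the wildtype arrays (exact permutation p = 0.706 and 0.21).

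**Figure D5:**
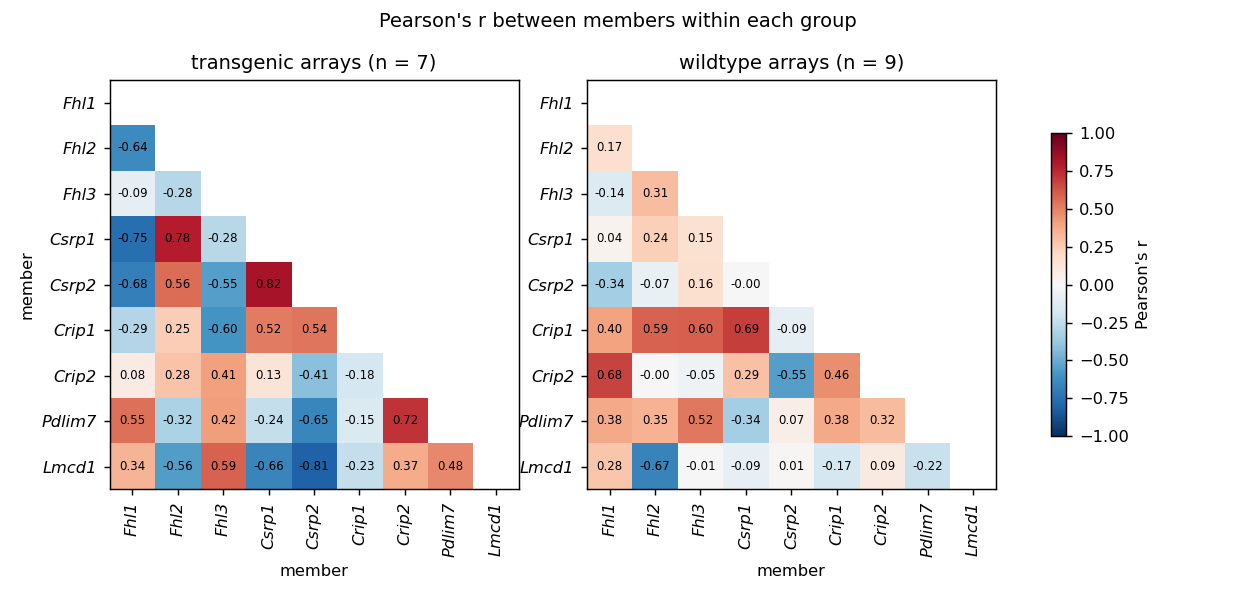
Pearson's r (colour and printed value) for each pair of the 9 LIM-domain genes within the 7 transgenic arrays (left) and the 9 wildtype arrays (right). Values run from -0.81 to 0.824 in the transgenic and from -0.667 to 0.694 in the wildtype arrays, and no pair passed after adjustment over 72 pairs.

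Over all 16 arrays, with each group's mean taken out, the genes whose deviations were most like those of Fhl2 were Med1, a subunit of the Mediator complex (Pearson's r = 0.866), Uhrf1bp1 (0.816), Ubxn2b (0.816), Zfr, an RNA-binding zinc-finger protein (0.805), and Naa16 (0.803). These are descriptions of shared deviations, picked as the highest of 19937 genes. Within the groups, the r of these 5 genes with Fhl2 ran from 0.796 (Naa16) to 0.976 (Med1) in transgenic arrays. In wildtype arrays it ran from 0.644 (Med1) to 0.892 (Naa16). Zfr was 1.17-fold higher in the transgenic group (limma adjusted p = 0.014), and the other 4 did not pass, with limma adjusted p-values of 0.0691 to 0.704. Among the LIM-domain genes, Csrp1 came closest at r = 0.547, rank 524, followed by Crip1 at 0.404, and Lmcd1 was lowest at -0.598.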

How the data were processed

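Liver RNA of 7 Pdgf-c transgenic and 9 wildtype samples was measured on 16 arrays, grouped by title. Per the submitters' processing notes the authors used GCRMA, and their deposited table was read as log2 intensities; its version and settings are not given in the sources used here, and the log base was read from the range of 0.71 to 14.7. Scanner files were not analysed here. For arrays, their number limits the precision. Of 35557 rows, 21789 were listed with 1 symbol, 1621 with several and 12147 were not listed in the probe annotation; the row with the highest mean stood for each of 19938 genes.

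All rows were fitted with limma 3.58.1 in R 4.3.3 (lmFit, eBayes with trend, two-sided, no filter, 14 residual degrees of freedom) and adjusted with the Benjamini-Hochberg method, threshold 0.05. The fit was tested on simulated data, with 50 of 35557 rows changed at each fold, a far smaller share than the 18.9% called in the data. The adjustment of p-values depends on that share, so the rates of recovery need not hold for the data. The fit recovered 26% of 1.25-fold, 72% of 1.5-fold, 94% of 2-fold and 100% of 4-fold changes, with 10 calls among unchanged rows. A gene that did not pass may thus still differ by a small fold. Relations used exact two-sided permutation of pairings.

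Members and gene lists were chosen with earlier results of these data known. Named are all members, other LIM-domain and partner genes called with at least a 1.5-fold change (in a subfamily without one, the called gene with the largest change or else the smallest p), the 5 genes most like Fhl2, Pdgfc and, for marker lists, counts. Other genes were named after their values were seen.

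Alternatives were quantile normalization, centring on medians, a floor at the 20th percentile, rows above the median level, eBayes without trend or robust, array weights, the mean over a gene's rows, a replicate block and leaving out arrays. Deviations of same-numbered transgenic and wildtype arrays correlated at -0.0186 to 0.0859, so they showed no shared deviation. Arrays of different numbers were not compared, so this does not exclude a pairing. Motif searches used Python 3.11.15 and plots matplotlib 3.10.9.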

Additional observations from a re-analysis of the deposited data

Results flagged for a closer look

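Among 29 genes named in the text, looked at in both groups (58 combinations), 1 had an array far from the others, where chance flags about 1 in 20. Mical1, the actin-oxidising enzyme, stood at 5.21 in wildtype array 9, and the next lowest wildtype array at 5.58, a gap of 0.53 of the group's range against a critical value of 0.493.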

How the results depend on the processing

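All 9 LIM-domain genes kept a positive difference under each alternative run for them, and each moved by less than the SD between replicates. The floor and the mean over a gene's rows could not move them, as each has 1 row and values above the floor. Small differences depended on scaling. Quantile normalization took Pdlim7 from 0.14 to 0.07 and Fhl1 from 0.23 to 0.15, but Csrp2 from 0.29 to 0.33 and Crip2 from 0.25 to 0.28. Centring took Fhl3 from 0.07 to 0.02 and Lmcd1 from 0.08 to 0.03. Leaving out 1 array at a time, Fhl2 ran from 3.16 to 3.32, Csrp1 from 1.87 to 1.96 and Crip1 from 1.00 to 1.08. Other LIM-domain genes that were lower numbered 1 as deposited, 7 with arrays centred on their medians, 7 after quantile normalization, 2 with eBayes without trend, 2 on rows above the median level (fewer genes tested), 4 without transgenic array 1 and wildtype array 9, and 1 to 3 without each array in turn. Lower partner genes numbered 2 as deposited, 3 with arrays centred on their medians, 1 with eBayes without trend, 1 without that pair of arrays, and 1 to 2 without each array. Over the whole array, 2936 rows were lower as deposited and 4688 after centring. The relations with marker lists that passed numbered 2 as deposited, 4 after centring and 0 without that pair of arrays (fewer samples, with r in the wildtype arrays of 0.872 for Crip1 and 0.826 for Csrp1); these were added after seeing the data. The cause of the other shifts was not tested. With the replicate block, run although no pairing of the samples is known, 15 other LIM-domain genes were higher and 1 lower. Partner genes were then higher in 12 and lower in 2 cases, and 3488 rows were higher and 2234 lower. The Limk2 call was lost with that block (limma adjusted p = 0.12). Of 14 named other genes, 12 kept call and direction under all 26 alternatives, with Limk2 and Lhx3 as the exceptions. The floor and the mean over a gene's rows also left the differences of these 14 genes as they were.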
